A study of Mus musculus with 3 samples.

Results

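The genes described here are 10 genes of antigen presentation by major histocompatibility complex (MHC) class II: H2-Aa, H2-Ab1, H2-Eb1, H2-DMa, H2-DMb1, H2-DMb2, Cd74, Ciita, Ctss and Cd86. They were picked by gene symbol out of the 31053 genes in each count matrix, and all 10 had counts in each of the 3 libraries. The libraries hold non-parenchymal liver cells, that is, cells other than the bulk of hepatocytes, of female BALB/c mice. Each came from perfused, dissociated liver and was made with the 10x Genomics 3' droplet method, in which a unique molecular identifier (UMI) marks each captured RNA molecule. The control library is from mice given PBS by orthotopic injection and labelled 8 weeks of age. The day 4 library is from mice labelled 8 weeks of age and injected orthotopically 4 days before with 4T1, a breast carcinoma cell line derived from the BALB/c strain. The day 21 library is from mice labelled 11 weeks of age, 21 days after the same injection. The series asked how a tumour outside the liver changes the liver.

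Class II molecules display peptides from ingested proteins to CD4 T cells. H2-Aa and H2-Ab1 encode the alpha and beta chains of the I-A molecule, and H2-Eb1 encodes the beta chain of I-E. Cd74 is the invariant chain, which fills the groove of new class II molecules and guides them to endosomes, where cathepsin S (Ctss) cuts it down. H2-DM, an alpha chain (H2-DMa) with either of the beta chains H2-DMb1 and H2-DMb2, then exchanges the remaining fragment for a peptide. Ciita is the coactivator that switches the class II genes on together, and Cd86 is a co-stimulatory ligand for CD28 on T cells. Dendritic cells, B cells and macrophages, among them the Kupffer cells that line the liver sinusoids, are the usual presenting cells. BALB/c mice and the mm10 genome, which is that of C57BL/6, carry different alleles of the class II genes, and the effect of this on the counts was not tested.

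There was 1 library per group, so no test between groups could be made. All intervals below are 95% intervals that cover counting error only, not the spread between mice or cells. Levels are CPM, the UMIs of a gene per 1000000 UMIs of a class in 1 library. After filtering, the control, day 4 and day 21 libraries held 4694, 5410 and 9938 cells, with medians of 4179, 4438 and 3017 UMIs per cell. Cells were clustered without the 10 genes and without 3 further class II genes, and clusters were named from markers. The day 21 library stands apart in its makeup: neutrophil-like cells were 1.19% of control, 3.53% of day 4 and 28.9% of day 21 cells, and the summed CPM of 12 neutrophil markers in Kupffer-like cells was 62.6, 62.5 and 6273 in the control, day 4 and day 21 libraries (9, 10 and 12 of 12 present). The part of these markers in the Kupffer-like results below was not tested. Pairs of libraries shared 13 to 32 cell barcodes.

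The upstream regions of 5 of the genes are shown because the class II genes are known to share a control element there, an X box followed by a Y box. Each line gives the 250 bases before the start of the RefSeq gene, 5′ to 3′ along its own strand, on GRCm38.p6. Capitals mark the X box core AACNGATG, where N is any base, the Y box core ATTGG, either also as its reverse complement, or, in Ctss, the interferon response element.
H2-Eb1 (chr17:34305617-34305866, plus strand): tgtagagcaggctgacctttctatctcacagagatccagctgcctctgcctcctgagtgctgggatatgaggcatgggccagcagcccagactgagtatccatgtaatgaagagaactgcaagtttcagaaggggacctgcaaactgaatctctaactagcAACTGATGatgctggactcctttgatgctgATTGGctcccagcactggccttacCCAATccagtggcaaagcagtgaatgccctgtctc
H2-DMb1 (chr17:34152941-34153190, plus strand): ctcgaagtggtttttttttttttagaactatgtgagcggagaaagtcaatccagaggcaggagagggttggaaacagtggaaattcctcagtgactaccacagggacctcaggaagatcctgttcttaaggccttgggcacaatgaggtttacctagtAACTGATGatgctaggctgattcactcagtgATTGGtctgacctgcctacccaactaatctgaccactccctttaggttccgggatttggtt
H2-DMb2 (chr17:34144999-34145248, plus strand): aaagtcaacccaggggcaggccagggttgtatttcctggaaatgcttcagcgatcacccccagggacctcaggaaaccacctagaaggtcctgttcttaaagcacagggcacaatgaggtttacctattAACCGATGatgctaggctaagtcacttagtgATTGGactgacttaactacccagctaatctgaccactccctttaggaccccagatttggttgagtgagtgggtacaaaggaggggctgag
H2-Aa (chr17:34287824-34288073, minus strand): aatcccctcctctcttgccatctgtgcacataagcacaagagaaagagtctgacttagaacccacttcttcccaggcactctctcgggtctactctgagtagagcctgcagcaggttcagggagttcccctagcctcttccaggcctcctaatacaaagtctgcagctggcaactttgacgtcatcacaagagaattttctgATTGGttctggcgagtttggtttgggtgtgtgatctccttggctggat
Ctss (chr3:95526536-95526785, plus strand): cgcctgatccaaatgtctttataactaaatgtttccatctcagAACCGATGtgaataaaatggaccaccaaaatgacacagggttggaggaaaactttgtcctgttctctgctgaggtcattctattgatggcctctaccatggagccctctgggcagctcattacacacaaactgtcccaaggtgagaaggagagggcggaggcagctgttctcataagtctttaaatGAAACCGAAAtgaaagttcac
H2-Eb1, H2-DMb1 and H2-DMb2 each held an X core followed by a Y core, with 22, 23 and 23 bases between them. Of the letters searched for, H2-Aa held only the Y core, 48 bases before its start. An X box with other letters than AACNGATG would be missed, so no match does not show that a gene lacks an X box. Ctss held an X core with no Y core and the interferon element 21 bases before its start. Over the 32851 promoters of the same length in the RefSeq table, either strand, 33.8% held the Y core, 1.98% the X core and 2.98% the interferon element. An X core with a Y core 5 to 30 bases after it, with no overlap, was found in 9 promoters, or 0.0274%, and 4 of the 9 belonged to H2-Eb1, H2-DMb1, H2-DMb2 and a further class II gene, H2-Eb2. The X core letters were settled after class II promoters had been viewed, so these shares are a description. The I-A, I-E and DM chain genes among the 10 lie together on chromosome 17 of GRCm38. There H2-DMa (34119541 to 34139101), H2-DMb2 (34143307 to 34151555) and H2-DMb1 (34153072 to 34160230) are neighbours on the plus strand. The table holds 2 upstream windows of H2-DMa, neither with an X core; one held no Y core and the other a Y core 198 bases before its start. The promoters of H2-DMa, H2-Ab1, Cd74, Ciita and Cd86 are not shown.

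Conventional dendritic-like cells had the highest class II levels in each library, and mature B-like cells came next among the classes with 50 or more cells per library. The classes rest on few dendritic cells, 53 control, 73 day 4 and 93 day 21 cells, against 325, 223 and 420 mature B-like and 480, 934 and 679 Kupffer-like cells. Cd74 stood at 15894, 16441 and 9387 CPM in conventional dendritic-like cells of the control, day 4 and day 21 libraries. In mature B-like cells Cd74 stood at 10067, 8327 and 7552 CPM, and in Kupffer-like cells at 2819.7, 2872 and 1801.5 CPM. The order of these 3 classes was thus the same in each library, and their intervals did not overlap. Plasmacytoid dendritic-like cells had 4154, 3626 and 1804 CPM of Cd74 in 42, 57 and 95 cells, and at day 21 their interval overlapped that of Kupffer-like cells. Monocyte/macrophage-like cells, with 33, 47 and 614 cells, had 9660.1, 10651 and 1631 CPM of Cd74. Their control level lay within counting error of that in mature B-like cells.

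The I-A and I-E chains followed the same order of classes as Cd74. H2-Aa had 10378, 11209 and 6835 CPM in conventional dendritic-like cells of the control, day 4 and day 21 libraries, 4648, 3859 and 4001.5 CPM in mature B-like cells, and 806, 879.7 and 942 CPM in Kupffer-like cells. H2-Ab1 had 8055, 8870.2 and 5346 CPM in conventional dendritic-like cells, 2984, 2571 and 2599 CPM in mature B-like cells, and 822, 948 and 945 CPM in Kupffer-like cells. H2-Eb1 had 7982, 9309 and 5014 CPM in conventional dendritic-like cells, 2753 to 3094 CPM over the 3 libraries in mature B-like cells, and 622 to 773 CPM in Kupffer-like cells. Each chain was therefore lowest at day 21 in conventional dendritic-like cells, whereas in Kupffer-like cells the day 21 level of H2-Aa and H2-Ab1 was above the control level.

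T-like cells, which in the mouse do not make class II molecules, gave the background. They had 23.2, 9.15 and 50.5 CPM of Cd74 in the control, day 4 and day 21 libraries, and 1.10%, 1.03% and 2.22% of them held a Cd74 UMI after each cell had been thinned to 1000 UMIs. The same shares were 79.0%, 80.1% and 65.9% of Kupffer-like cells and 99.1%, 95.5% and 97.9% of mature B-like cells. Unthinned, a Cd74 UMI was found in 3.79%, 3.39% and 3.25% of T-like cells at median depths of 3696, 3908 and 1753 UMIs, and in 94.4%, 94.1% and 74.4% of Kupffer-like cells at 7778, 7414 and 1998 UMIs. Of the UMIs of H2-Aa, H2-Ab1, H2-Eb1 and Cd74 in T-like cells at day 21, 3 of 585 cells held 56.25%. A B or dendritic marker was found in 2 of these cells. In the control 1 of 660 T-like cells held 36.4%, so the T-like level in these libraries rests in part on few cells. Endothelial-like cells had 9.10, 12.5 and 19.9 CPM of Cd74, at or near the T-like level, so their class II values are read as background and no ratio is given. Ctss and H2-DMa stood higher in T-like cells, at 63.3, 60.8 and 64.4 CPM and at 21.2, 24.2 and 19.1 CPM, than in endothelial-like cells, which had 4.74, 8.65 and 11.8 CPM of Ctss and 1.02, 0.645 and 2.22 CPM of H2-DMa.

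**Figure D1:**
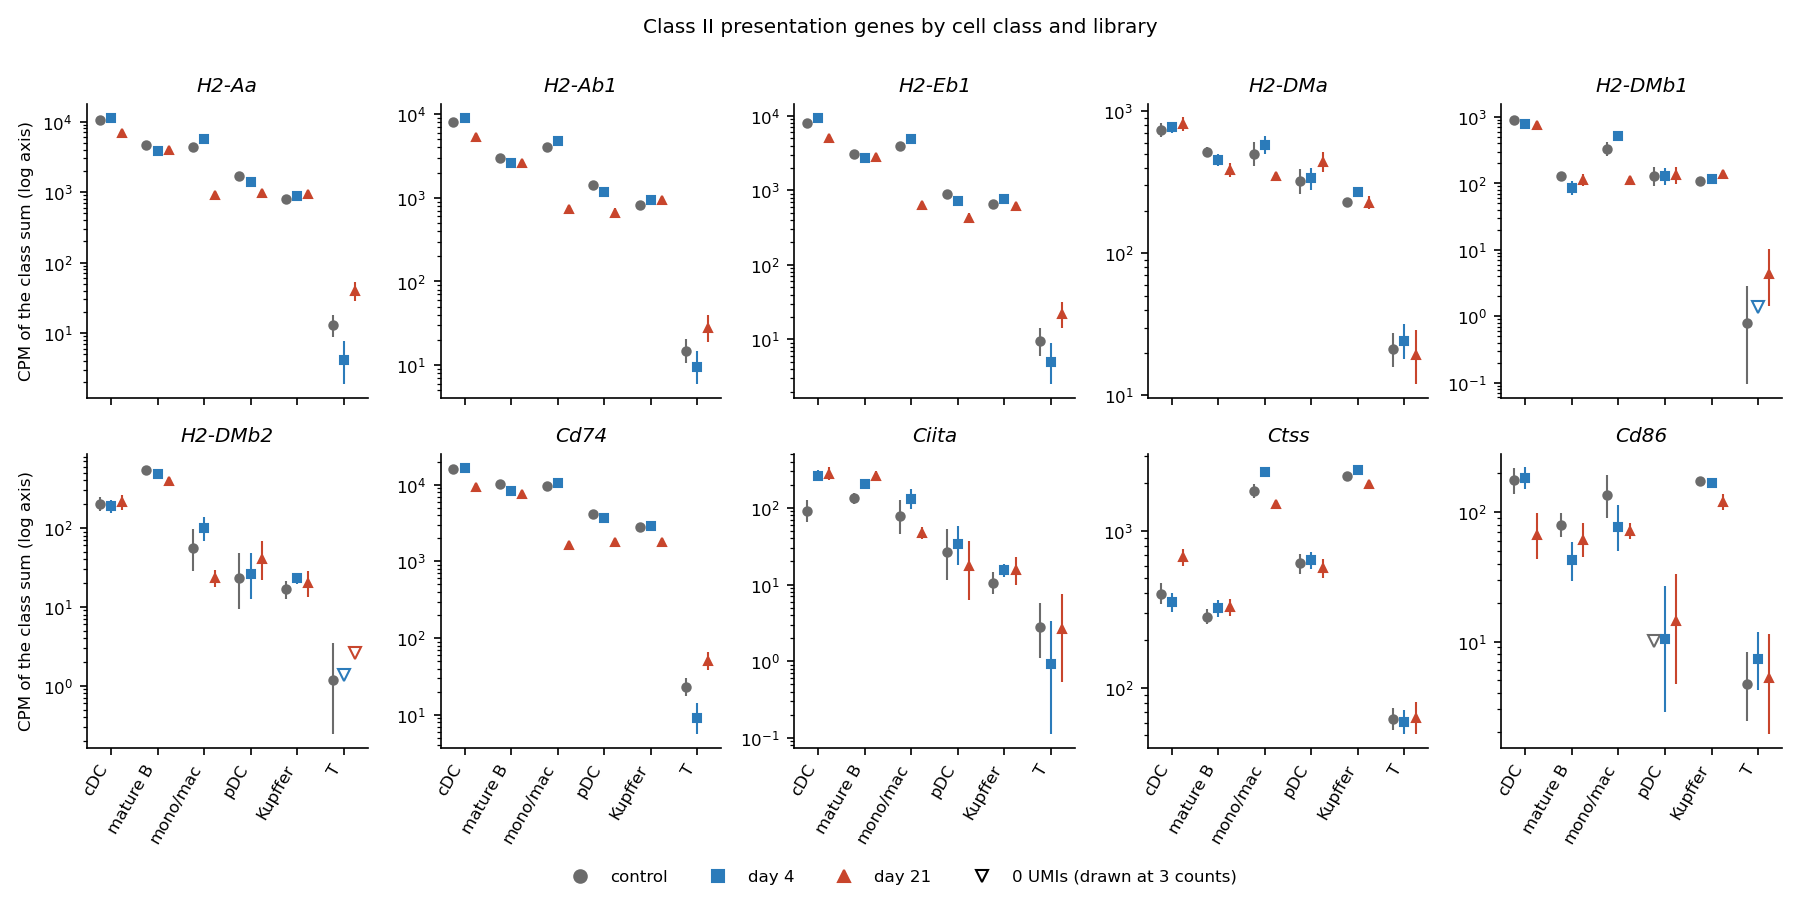
Level of each of the 10 genes in CPM (log axis) in conventional dendritic-like (cDC), mature B-like, monocyte/macrophage-like (mono/mac), plasmacytoid dendritic-like (pDC), Kupffer-like and T-like cells, with 1 point per library and 95% Poisson intervals; open triangles mark 0 UMIs, drawn at a floor of 3 counts. Cd74 is 15894, 16441 and 9387 CPM in cDC-like cells and 23.2, 9.15 and 50.5 CPM in T-like cells, while Ctss is highest in Kupffer-like and monocyte/macrophage-like cells.

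The remaining members did not all share the dendritic-first order. H2-DMb2 was highest in mature B-like cells, with 541, 484 and 391 CPM in the control, day 4 and day 21 libraries, against 202, 189 and 211 CPM in conventional dendritic-like cells. Ciita, the coactivator, was 134, 205 and 262 CPM in mature B-like cells, 91.8, 264 and 280.4 CPM in conventional dendritic-like cells and 10.5, 15.4 and 15.3 CPM in Kupffer-like cells. At day 4 and day 21 the Ciita intervals of conventional dendritic-like and mature B-like cells overlapped, so these classes are not ordered there. H2-DMa was 739, 771 and 810 CPM in conventional dendritic-like cells, 519.9, 453 and 387 CPM in mature B-like cells and 228, 269 and 227 CPM in Kupffer-like cells, the same order as Cd74. H2-DMb1 was 894, 781 and 756 CPM in conventional dendritic-like cells, whereas mature B-like cells, at 128, 85.1 and 113 CPM, were below Kupffer-like cells, at 117 CPM, at day 4 and overlapped with them at day 21 (139 CPM) and in the control (108 CPM). Ctss was highest in Kupffer-like cells, at 2226, 2448 and 1989.8 CPM, and next in monocyte/macrophage-like cells, at 1789, 2354 and 1488 CPM with an overlapping interval at day 4, against 398, 351 and 679 CPM in conventional dendritic-like cells. Cd86 was 177, 184 and 66.9 CPM in conventional dendritic-like cells and 175, 167 and 120.0 CPM in Kupffer-like cells, with overlapping intervals in the control and day 4 libraries. Cd86 had 0 UMIs in the 42 plasmacytoid dendritic-like control cells, which allows a level of up to 10.1 CPM.

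In Kupffer-like cells the class II genes stood slightly higher at day 4 than in the control, each by less than 2-fold. Of the 10 genes 9 were higher, 7 of them with an interval above 0, and the median log2 ratio was 0.17, against 0.01 over all 10675 genes counted. Of all these genes 51.4% were above 0, and the share with an interval above 0 was not counted. None of the 10 was 2-fold higher or lower, where 1.79% of all genes were higher and 2.44% lower by that much. H2-Ab1 had 948 CPM at day 4 and 822 CPM in the control, a log2 ratio of 0.21 (0.14 to 0.27). H2-DMa, with 269 CPM at day 4 and 228 CPM in the control, had a log2 ratio of 0.24 (0.12 to 0.36). Cd74, with 2872 and 2819.7 CPM at day 4 and in the control, differed by 0.03 (−0.01 to 0.06). The day 4 differences are thus small, and 1 library a group cannot tell them from differences between mice.

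At day 21 the genes of Kupffer-like cells parted from each other. Cd74 was lower, with 1801.5 CPM at day 21 and 2819.7 CPM in the control, a log2 ratio of −0.65 (−0.71 to −0.59). Cd86 was 120.0 CPM at day 21 and 175 CPM in the control (−0.54, −0.79 to −0.31). H2-Aa was instead 942 CPM at day 21 and 806 CPM in the control, a log2 ratio of 0.23 (0.13 to 0.32), and H2-DMb1 was 139 and 108 CPM, a ratio of 0.36 (0.12 to 0.61). Over the 10 genes 5 were higher and 5 lower, with a median of 0.10 against 0.09 over 9689 genes, of which 56.7% were above 0. The median of the 10 genes was −0.26 with cells thinned to 1000 UMIs and −0.12 as a mean over cells, so it has no firm direction. None passed 2-fold, where 5.96% of all genes were higher and 6.07% lower by that much. As a share of the UMIs of 7 class II genes (the I-A, I-E and DM chains and the invariant chain), Cd74 made up 51.6%, 48.8% and 38.4% in the control, day 4 and day 21 libraries, and H2-Aa 14.8%, 14.96% and 20.1%.

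The Kupffer-like class was made of a deeper and a shallower cluster, and the libraries filled them unequally. The deeper cluster held 302 of 480 control cells, 611 of 934 day 4 cells and 42 of 679 day 21 cells. In the shallower cluster Cd74 was 1581 CPM at day 21 (637 cells) and 3126 CPM in the control (178 cells), a log2 ratio of −0.98 (−1.08 to −0.89), while H2-Aa was 812 and 878 CPM (−0.11, −0.28 to 0.05). In the deeper cluster the direction was the other way: Cd74 was 3352 CPM in 42 day 21 cells and 2775 CPM in 302 control cells, and H2-Aa was 1853 and 795 CPM. Although 42 cells are under the 50 otherwise required for a ratio, with the deeper cluster alone the log2 ratio of Cd74 was 0.27, that of H2-Aa 1.22, and the median of the 10 genes 0.64. At day 4 the median was 0.17 over 10 genes in the deeper cluster and 0.22 over the 9 genes with enough counts in the shallower one. The direction of Cd74 at day 21 thus depended on the cluster. At a clustering resolution of 2, a shallow Kupffer-like cluster led by C1qb held 170 control and 86 day 21 cells. Another, led by Marco, held 9 and 552, so most shallow day 21 cells had few control cells beside them. The part of this in the ratios of the shallower cluster was not tested. Summed B markers in Kupffer-like cells were 242, 294 and 348 CPM in the control, day 4 and day 21 libraries (9, 10 and 10 of 10 markers present), and summed conventional dendritic markers 194, 212 and 276 CPM (13, 13 and 12 of 15 present, Itgae at 0 in all 3 libraries). Leaving out every cell that held a B or dendritic marker gave a day 4 median of 0.28 and a Cd74 ratio of −0.60 at day 21.

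**Figure D2:**
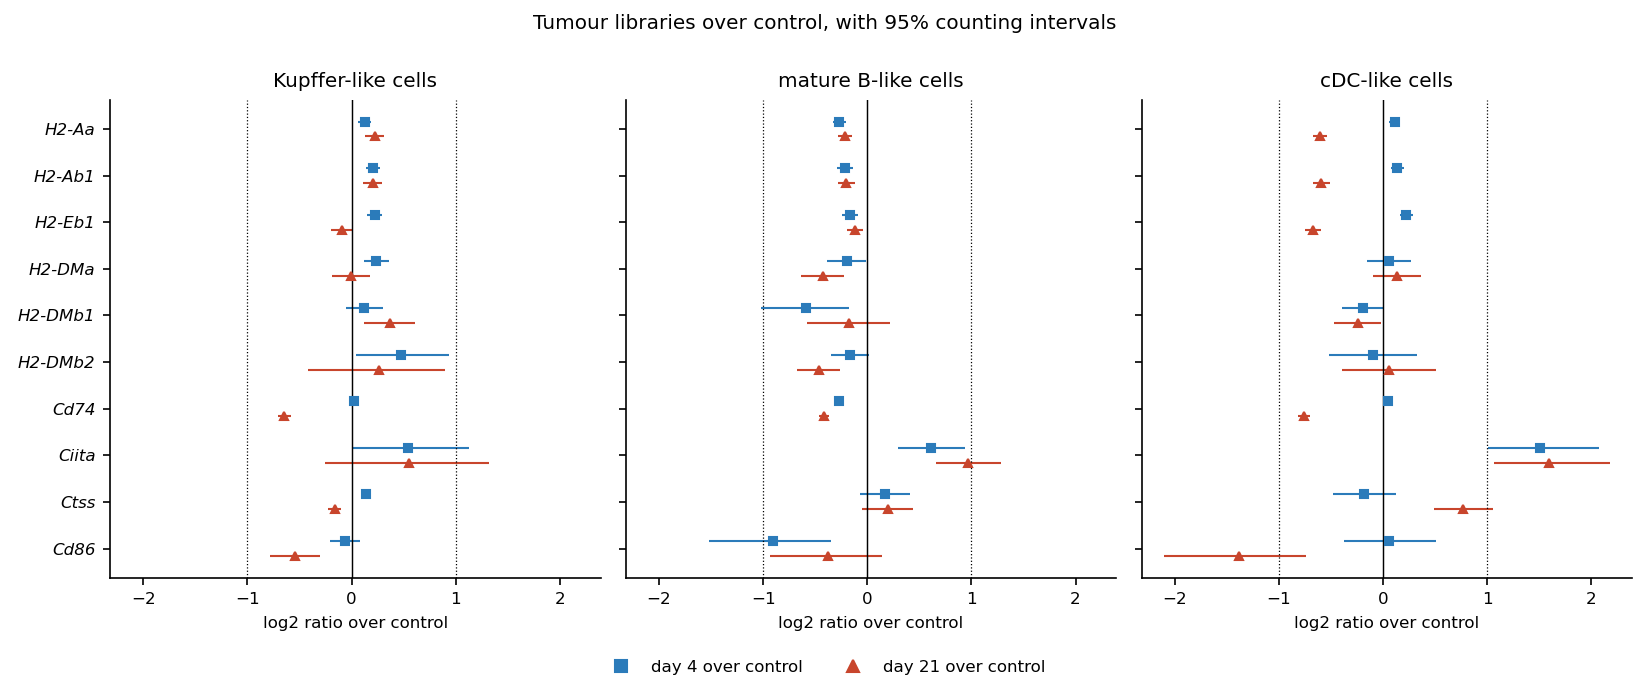
Log2 ratio of each gene's level at day 4 (squares) and day 21 (triangles) over the control in Kupffer-like, mature B-like and conventional dendritic-like cells, with 95% counting intervals; dotted lines mark 2-fold. Ciita lies right of 0 in each panel, Cd74 lies left of 0 at day 21 in each panel with both Kupffer clusters pooled, and only Ciita and Cd86 in conventional dendritic-like cells pass 2-fold.

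Mature B-like cells had lower class II levels in both tumour libraries, again by less than 2-fold. Of the 10 genes 8 were lower at day 4 and 8 at day 21, with medians of −0.21 and −0.21. Over all genes the medians were 0.04 and 0.23, and 54.35% and 66.6% of them were above 0. Cd74 had 8327 CPM at day 4 and 10067 CPM in the control (−0.27, −0.32 to −0.23), and 7552 CPM at day 21 (−0.41, −0.46 to −0.37). H2-Aa was 3859 CPM at day 4 and 4648 CPM in the control (−0.27), and 4001.5 CPM at day 21 (−0.22). H2-DMb2, a beta chain of DM, was 391 CPM at day 21 and 541 CPM in the control (−0.47, −0.68 to −0.27). No gene passed 2-fold at day 4, where 3.38% of all genes were higher and 2.86% lower by that much, or at day 21, where the shares were 10.7% and 3.25%. With a mitochondrial limit of 10%, which left 71 day 21 cells in the class, the day 21 median was −0.84, and Cd74 (−1.11) and H2-DMb2 (−1.84) passed 2-fold. Over the other alternatives it lay between −0.44, under median-of-ratios scaling, and −0.15, without a cell filter.

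Ciita and Ctss were the 2 exceptions in mature B-like cells. Ciita was 205 CPM at day 4 and 134 CPM in the control, a log2 ratio of 0.61 (0.29 to 0.94), and 262 CPM at day 21, a ratio of 0.97 (0.66 to 1.28), which was 0.02 with a mitochondrial limit of 10%. It was found in 32.6%, 46.6% and 36.4% of control, day 4 and day 21 cells, or 13.9%, 23.8% and 27.0% of cells thinned to 1000 UMIs, and T-like cells had 2.75, 0.915 and 2.61 CPM. Ciita thus stood higher in both tumour libraries, while the 7 I-A, I-E, DM and invariant chain genes had ratios below 0. Over all 10 genes 7 intervals lay below 0 at day 4 and 6 at day 21. The share of all measured genes with such an interval was not counted. Ctss was 325 CPM at day 21 and 284 CPM in the control, with an interval that held 0 and a ratio of −0.03 under median-of-ratios scaling. Cd86 was 42.5 CPM at day 4 and 80.4 CPM in the control (−0.91, −1.52 to −0.34), from 35 and 94 UMIs. Summed neutrophil markers in these cells were 10.3, 721 and 2278 CPM in the control, day 4 and day 21 libraries (4, 10 and 12 of 12 present, S100a8 at 0 in the control) and summed plasma cell markers 5097, 8537 and 578 CPM, and their part in the result was not tested.

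All B-like cells pooled gave another picture at day 21. That library held 302 cells of a B-like cluster led by Igll1, Vpreb1 and Vpreb2, genes of the surrogate light chain of early B cells, against 1 cell at day 4 and 0 of 4694 in the control. In these early B-like cells Cd74 was 115 CPM and H2-Aa 65.4 CPM, and 83.6% of the 274 cells deep enough had no UMI of H2-Aa, H2-Ab1, H2-Eb1 or Cd74 among 1000. With them included, 8 of the 10 genes were at least 2-fold lower at day 21 than in the control, where 4.36% of all genes were that much lower and 24.3% higher, and the median was −1.49. Without them 0 of 10 were, and the median was −0.21. The split into mature and early B-like cells was made after the data had been seen.

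Conventional dendritic-like cells had near-control class II levels at day 4 and lower ones at day 21. H2-Aa was 11209 CPM at day 4 and 10378 CPM in the control (0.11, 0.06 to 0.17), and 6835 CPM at day 21 (−0.60, −0.67 to −0.53). H2-Eb1 was 9309 CPM at day 4 and 7982 CPM in the control (0.22, 0.16 to 0.28), and 5014 CPM at day 21 (−0.67, −0.75 to −0.59). Cd74 was 9387 CPM at day 21 and 15894 CPM in the control, a log2 ratio of −0.76 (−0.82 to −0.70). Of the 3 DM chains H2-DMb1 was lower too, with 756 CPM at day 21 and 894 CPM in the control (−0.24, −0.47 to −0.02), though thinning cells to 1000 UMIs gave 0.10. The intervals of the other DM chains held 0: H2-DMa was 810 CPM at day 21 and 739 CPM in the control (0.13, −0.10 to 0.36), and H2-DMb2 was 211 and 202 CPM (0.06, −0.39 to 0.51). Under median-of-ratios scaling the ratios of H2-DMa and H2-DMb2 turned to the other sign, −0.06 and −0.14. Over the 10 genes the medians were 0.06 at day 4 and −0.42 at day 21, against −0.02 and 0.20 over all genes.

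Ciita and Cd86 were the only genes past 2-fold in conventional dendritic-like cells. Ciita was 264 CPM at day 4 and 91.8 CPM in the control, a log2 ratio of 1.51 (1.01 to 2.07), and 280.4 CPM at day 21, a ratio of 1.60 (1.07 to 2.18); the control value rests on 39 UMIs. At day 4, 3.67% of all genes passed 2-fold upward and 4.14% downward, and at day 21 the shares were 11.3% and 4.18%. Cd86 was 66.9 CPM at day 21 and 177 CPM in the control (−1.38, −2.10 to −0.74), from 26 and 75 UMIs. It did not pass 2-fold under a mitochondrial limit of 10% (−0.77) or with class II genes allowed in clustering (−0.70). Ctss went the other way, at 679 CPM at day 21 and 398 CPM in the control (0.77, 0.49 to 1.06). The day 4 and day 21 ratios share the one control library.

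The makeup of the dendritic-like class shifted between the libraries. A subcluster with 8 of 8 markers of cDC1, the subset specialised in cross-presentation, held 21 control, 32 day 4 and 13 day 21 cells, and a second subcluster, with 5 of 6 markers of cDC2, the subset known for class II presentation, held 12, 16 and 56. None of these markers was among the 10 leading genes of either, and the second was led by Ccl3, Clec4e and Sirpb1b, with Ms4a6d and Clec4a1, genes also known from monocytes and macrophages, so it is not named. In cDC1-like cells H2-Aa was 11214 CPM in the control and 11666 CPM at day 4, with a day 21 interval of 9802 to 11425 CPM, and Cd74 was 16937, 16285 and 13856 CPM in the control, day 4 and day 21 libraries. In the second subcluster H2-Aa was 9754, 10022 and 6422 CPM and Cd74 16346, 16498 and 9026 CPM. The day 21 levels were thus below the control in the second subcluster for both genes, and in cDC1-like cells for Cd74, while the H2-Aa intervals of cDC1-like cells overlapped. Of the further subclusters with no name, one led by cell division genes such as Ttk and Aspm had 10906, 8262.5 and 4397 CPM of H2-Aa in 3, 3 and 12 cells, and the other, led by the hepatocyte genes Mup3, Fgg and Ttr among others, had 12973 CPM in 8 day 21 cells, against 7525.5 CPM in 12 control cells. A subcluster with 5 of 5 markers of Ccr7-expressing dendritic cells, 5, 3 and 4 in number, had 4379, 16096 and 3368 CPM of H2-Aa and 5428, 28825 and 8421 CPM of Cd74. The difference between the subclusters was not tested. Ciita was 75.6, 275 and 269.5 CPM in cDC1-like cells, with both tumour intervals above that of the control. It was 146, 303 and 303 CPM in the second subcluster, where the intervals overlapped that of the control, which rests on 12 UMIs. Summed monocyte/macrophage markers in the dendritic-like class were 1452, 1829 and 4679 CPM (Vcan at 0 in all 3 libraries) and summed neutrophil markers 1036, 15.4 and 7185 CPM (10, 4 and 12 of 12 present, Mmp8 and Ly6g at 0 in the first 2 libraries), and their part in the result was not tested.

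**Figure D3:**
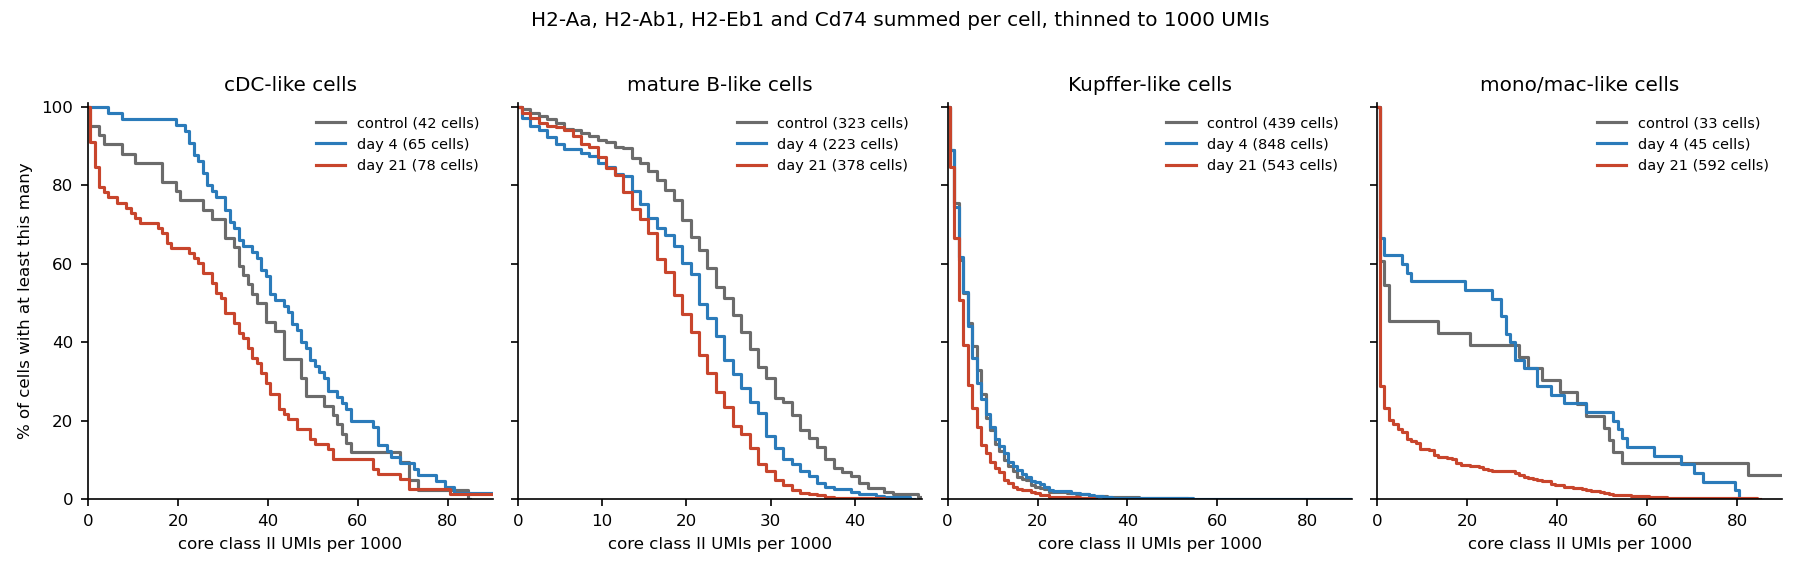
Share of cells (%) with at least a given number of UMIs of H2-Aa, H2-Ab1, H2-Eb1 and Cd74 together, out of 1000 UMIs drawn per cell, in conventional dendritic-like, mature B-like, Kupffer-like and monocyte/macrophage-like cells of the 3 libraries. The medians are 38, 43 and 30 in conventional dendritic-like cells and 25, 21 and 19 in mature B-like cells, and the day 21 monocyte/macrophage-like curve drops to 12.8% at 10 UMIs.

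Cell by cell, the 10th, 25th, 50th, 75th and 90th percentiles of mature B-like cells were all lower in both tumour libraries. Out of 1000 UMIs per cell, the 4 genes H2-Aa, H2-Ab1, H2-Eb1 and Cd74 took a median of 25, 21 and 19 in the control, day 4 and day 21 libraries, and the 90th percentile was 36.8, 31.8 and 28. Conventional dendritic-like cells had medians of 38, 43 and 30, and their 10th percentile was 7.3, 23 and 1. Of the dendritic-like cells, 88.1%, 96.9% and 73.1% had 10 or more of these UMIs, the lowest share being that of day 21. Kupffer-like cells had medians of 4, 4 and 3. No UMI of the 4 genes was found in 10.9%, 11.1% and 15.3% of them, so most Kupffer-like cells held class II RNA in each library. Cells under 1000 UMIs were left out: 11, 8 and 15 dendritic-like, 2, 0 and 42 mature B-like, and 41, 86 and 136 Kupffer-like cells.

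Monocyte/macrophage-like cells split into cells rich and poor in class II RNA. Of those thinned to 1000 UMIs, 15 of 33 control cells (45.5%), 25 of 45 day 4 cells (55.6%) and 76 of 592 day 21 cells (12.8%) had 10 or more UMIs of the 4 genes. Cells near that limit, with 5 to 14, numbered 1, 3 and 43. At day 21 the cells under the limit had 518 CPM of Ly6c2, a marker of inflammatory monocytes, and the cells at or over it had 207 CPM. F13a1, another monocyte gene, was 639 and 119 CPM in the same cells, and Vcan 121 and 18.8 CPM. Ccr2, also among the monocyte markers, differed less, at 1829 and 1512 CPM. The dendritic genes Flt3 and Zbtb46 were low in both, with at most 15.7 CPM. At day 21 Flt3 was 15.7 CPM in the richer cells and 6.82 CPM in the poorer, from 5 and 17 UMIs. Zbtb46 was 0 and 13.8 CPM in these at day 4, from 0 and 2 UMIs. Cd209a, also among the dendritic markers, was higher in the cells at or over the limit in each library. It had 70.5 CPM against 8.67 CPM under the limit in the control, 33.8 CPM against 0 at day 4 and 12.55 CPM against 0.401 CPM at day 21, from at most 7 UMIs each. Clec10a, another, was 10.1 CPM in the richer cells and 0 in the poorer in the control, and 16.9 CPM and 0 at day 4, from at most 3 UMIs. At day 21 it was 15.7 CPM in the richer and 20.1 CPM in the poorer cells. The class as a whole had 895 CPM of H2-Aa at day 21 and 4366 CPM in the control, where 33 cells were too few for a ratio. Summed Kupffer markers in the class were 3537, 8433 and 794 CPM in the control, day 4 and day 21 libraries (9, 12 and 13 of 13 present, Folr2 and Cd163 at 0 in the control and Marco at day 4). Summed neutrophil markers were 149, 111 and 4465 CPM (6, 6 and 12 of 12 present, Ly6g at 0 in the first 2 libraries), and the part of both lists in these values was not tested.

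Plasmacytoid dendritic-like cells could be compared between day 21 and day 4. Cd74 was 1804 CPM at day 21 and 3626 CPM at day 4, a log2 ratio of −1.01 (−1.15 to −0.87), and H2-Ab1 was 659 and 1166 CPM (−0.82). H2-DMa, by contrast, was 440 CPM at day 21 and 337 CPM at day 4 (0.39, 0.04 to 0.74). Of the 8 genes with enough counts 1 was at least 2-fold lower and none 2-fold higher, where 2.9% and 6.2% of all genes were. Summed Kupffer markers in these cells were 403 CPM at day 21 and 1358 CPM at day 4 (12 of 13 present in each, Marco at 0 in both). Summed neutrophil markers were 1433 CPM at day 21 and 10.5 CPM at day 4 (7 and 2 of 12 present, Mmp8 at 0 in both), and the part of both lists in the result was not tested.

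In several other classes a few cells held nearly all class II UMIs. Among NK/ILC1-like cells 1 of 159 control cells, 2 of 163 day 4 cells and 2 of 124 day 21 cells held 88.5%, 95.8% and 97.5% of the UMIs of the 4 genes, and 1, 1 and 2 of these cells also held a B or dendritic marker. In the 85 erythroid-like cells of day 4, 11 cells held 89.7%. Stellate-like cells had 133, 161 and 129 CPM of Cd74, with 81.5%, 81.2% and 48.0% of the 4 genes' UMIs in 12, 18 and 5 cells. The levels in these classes thus rest on few cells, and no ratio is given. In cholangiocyte-like cells, 19, 22 and 21 in number, H2-Ab1 had 38, 33 and 14 UMIs and was found in 11, 15 and 9 cells, whereas H2-Aa had 5, 3 and 4 UMIs and was found in 2, 3 and 3 cells.

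H2-DMb1 and H2-DMb2, the alternative beta chains of DM, divided by cell class. H2-DMb2 made up 80.8%, 85.0% and 77.5% of the UMIs of the pair in mature B-like cells of the control, day 4 and day 21 libraries. Its share was 18.5%, 19.5% and 21.8% in conventional dendritic-like cells, 13.4%, 16.5% and 12.5% in Kupffer-like cells and 14.5%, 16% and 17.0% in monocyte/macrophage-like cells. The B-like intervals did not overlap with those of these other classes in any library, while the intervals of the libraries overlapped within each class. Among classes with few UMIs of the pair, the share was 73.8% (58.0 to 86.1) of 42 UMIs in neutrophil precursor-like cells and 45.2% (27.3 to 64.0) of 31 UMIs in neutrophil-like cells, both at day 21. The transcripts of the pair in GENCODE are 86.0% identical over their aligned length and 72.5% over the last 300 bases, where 3' reads fall. None of the 310 stretches of 91 bases in the last 400 bases of H2-DMb1 occurs in H2-DMb2, so reads of that length from these stretches tell the genes apart in the C57BL/6 sequence; BALB/c alleles were not checked.

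**Figure D4:**
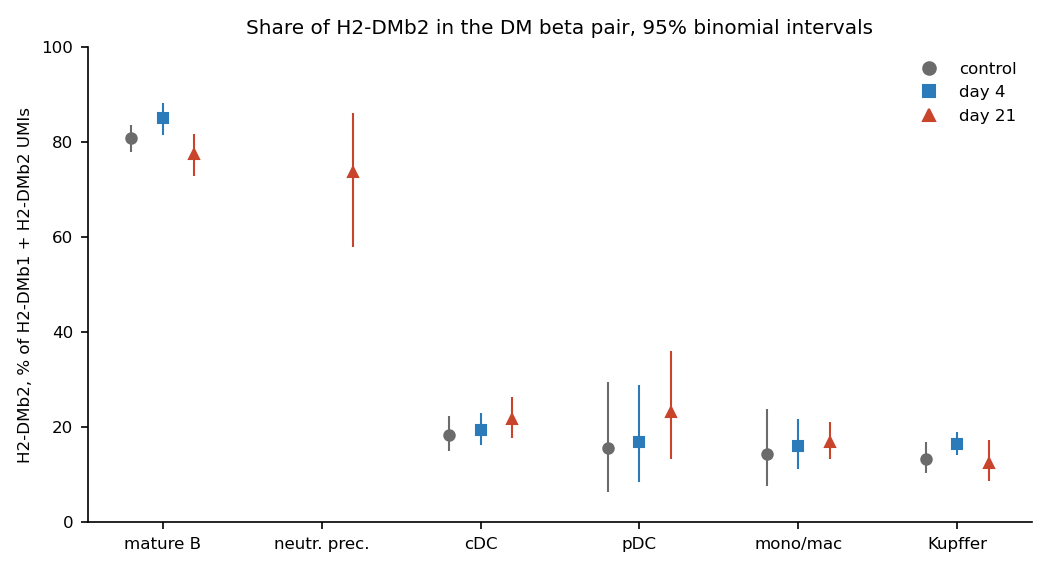
Share of H2-DMb2 in the UMIs of H2-DMb1 and H2-DMb2 together (%, axis from 0 to 100), by class and library, with 95% Clopper-Pearson intervals; groups under 20 UMIs are left out, and neutrophil-like, stellate-like and NK/ILC1-like cells are not drawn. Mature B-like cells lie at 77.5% to 85.0%, neutrophil precursor-like cells at 73.8% (day 21), and conventional dendritic-like, plasmacytoid dendritic-like, monocyte/macrophage-like and Kupffer-like cells at 12.5% to 23.3%.

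In sums over whole libraries 9 of the 10 genes were lowest at day 21. Fewer cells of a class and less RNA per cell cannot be told apart in such sums. Cd74 was 1459.6, 1558.8 and 431 CPM over all kept cells of the control, day 4 and day 21 libraries. At day 21 6 of the 10 genes were at least 2-fold lower than in the control, where 34.3% of all genes were that much lower and 10.2% higher, and the median was −1.21 against −0.57 over all genes. At day 4 none of the 10 passed 2-fold, where 2.43% of all genes were higher and 1.77% lower. H2-DMa was the exception in direction, at 99.2 CPM at day 21 and 91.5 CPM in the control. Ciita was near its control level, with 541 of 45641349 UMIs at day 21 and 287 of 23881241 in the control.

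The cells that supplied each gene differed between the libraries. Conventional dendritic-like cells were 1.13%, 1.35% and 0.936% of cells in the control, day 4 and day 21 libraries and held 19.4%, 22.0% and 18.5% of Cd74 UMIs. Kupffer-like cells held 29.2%, 44.97% and 14.3% of Cd74 and 81.5%, 85.9% and 30.7% of Ctss. Monocyte/macrophage-like cells held 3.89%, 3.90% and 41.4% of Ctss, so at day 21 they passed Kupffer-like cells as its largest named source. Mature B-like cells held 75.5%, 54.4% and 43.1% of H2-DMb2 and 54.7%, 32.0% and 35.5% of Ciita. Unnamed clusters were the largest holder of H2-DMa at day 21, with 46.7% of its UMIs against 2.27% at day 4 and 4.80% in the control. One of them, cluster 19, held 962 day 21 cells; 78.9% of them had an H2-DMa UMI and 11.0% a Cd74 UMI, at 189 and 107 CPM. Thinned to 1000 UMIs, 18.2% of them had an H2-DMa UMI, against 1.85% of day 21 T-like cells. In this cluster 24 of the 962 cells held 87.7% of the UMIs of H2-Aa, H2-Ab1, H2-Eb1 and Cd74. Its Cd74 level thus rests on few cells. A B or dendritic marker was found in 20 of these 24 cells and in 41.5% of all 962. By marker count cluster 19 was nearest to the monocyte/macrophage class, with 8 of its markers against 5 of the neutrophil precursor class. It was left unnamed after the data had been seen. The day 21 values of monocyte/macrophage-like cells and of the unnamed clusters rest on that choice.

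**Figure D5:**
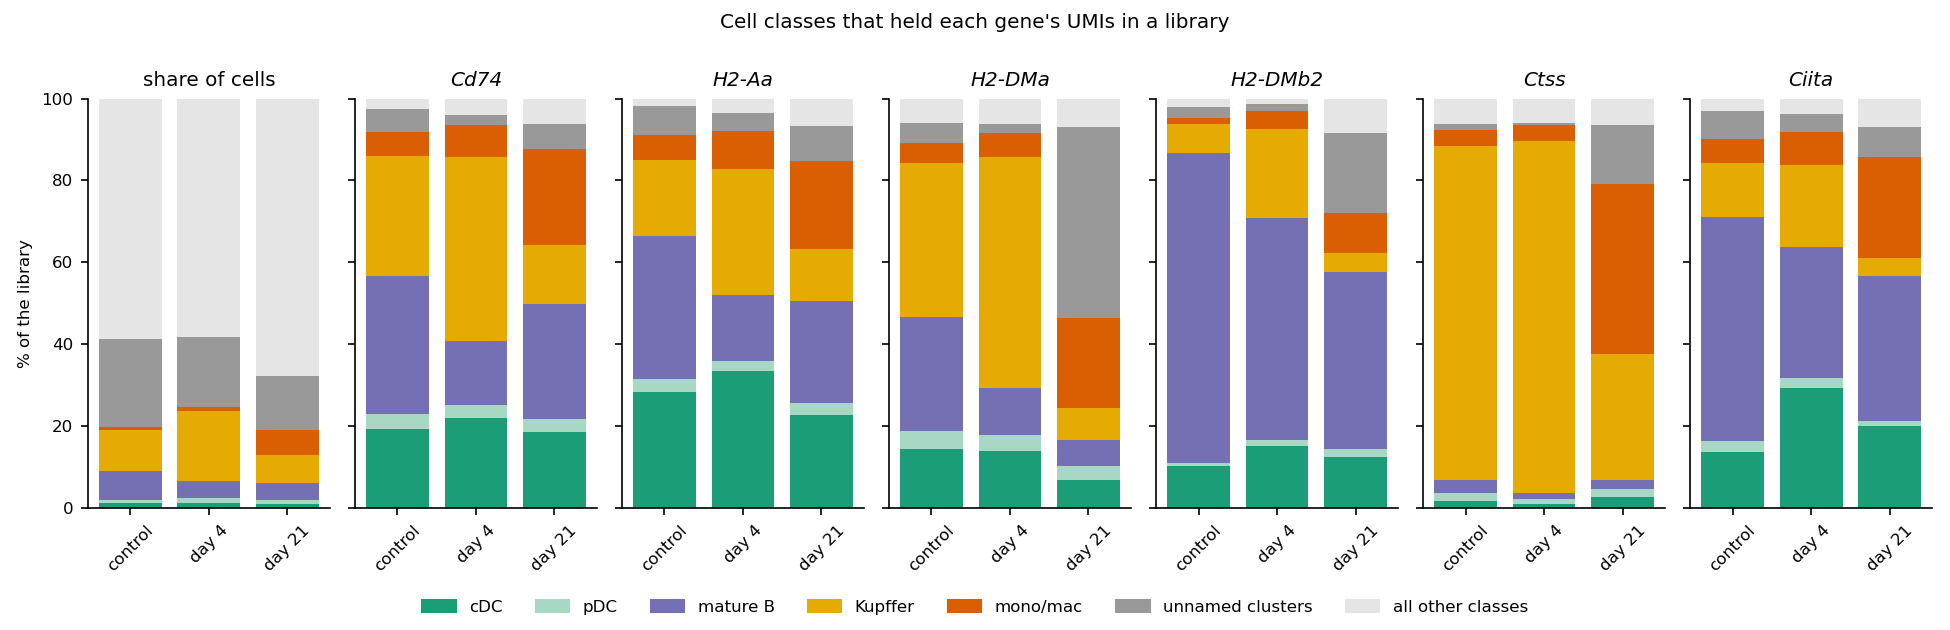
Share (%) of the kept cells and of the UMIs of Cd74, H2-Aa, H2-DMa, H2-DMb2, Ctss and Ciita that each class holds in the control, day 4 and day 21 libraries, as bars stacked to 100%. Kupffer-like cells hold 81.5%, 85.9% and 30.7% of Ctss UMIs, and unnamed clusters hold 46.7% of H2-DMa UMIs at day 21.

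Genes of lysosomal processing, which cut antigens and the invariant chain, differed by class. Of the 7 measured, 7 were higher in mature B-like cells at day 4 and 7 at day 21, with medians of 0.37 and 0.79 against 0.04 and 0.23 over all genes, of which 54.35% and 66.6% were above 0. In conventional dendritic-like cells at day 4 5 of the 7 were lower, with a median of −0.92 against −0.02 over all genes, and 2 were at least 2-fold lower, where 4.14% of all genes were: Lgmn, an asparaginyl endopeptidase (−1.02, −1.82 to −0.26), and Ctsd, cathepsin D (−1.71, −3.06 to −0.58, from 9 and 22 UMIs). At day 21 5 of the 7 were higher in these cells, with a median of 0.13 against 0.20 over all genes. In mature B-like cells at day 21, where 10.7% of all genes were at least 2-fold higher, this was passed by Lgmn (1.12, 0.57 to 1.68), and Ctsl, cathepsin L (1.30, 0.61 to 2.04). In Kupffer-like cells at day 21 3 were higher and 4 lower, and Lgmn was 3953 CPM at day 21 and 2065 CPM in the control (0.94). Cst3, cystatin C, an inhibitor of these proteases, was lower there (−0.58) and in conventional dendritic-like cells, with 12191 CPM at day 21 and 22160.0 CPM in the control (−0.86, −0.91 to −0.81).

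Most of the 11 factors of class II transcription had ratios above 0 in mature B-like cells. In mature B-like cells 10 were higher at day 4 and 11 at day 21, with medians of 0.41 and 0.74, against 0.04 and 0.23 over all genes, of which 54.35% and 66.6% were above 0. At day 21, where 10.7% of all genes were at least 2-fold higher, Nfya, a subunit of the Y box factor NF-Y, had a log2 ratio of 1.61 (0.72 to 2.60). In Kupffer-like cells at day 21 8 were higher and 3 lower, with 56.7% of all genes above 0; the shares of all genes past 2-fold were 5.96% upward and 6.07% downward. There Irf1, an interferon-induced factor, had a ratio of 1.21 (0.92 to 1.51) and Nfya 1.01 (0.54 to 1.47), while Rfxap, a subunit of the X box factor RFX, had −1.56 (−2.28 to −0.95). In conventional dendritic-like cells 5 of the 7 with enough counts were higher at day 21, where 63.9% of all genes were above 0 and 11.3% at least 2-fold higher, and Irf1 had a ratio of 1.71 (0.69 to 2.95) from 31 and 10 UMIs.

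The co-stimulatory genes differed in direction by class and library. Of 4 genes of the interferon gamma receptor and its kinases, 1 was higher and 3 lower in mature B-like cells at both times. The same counts held in Kupffer-like cells. In conventional dendritic-like cells 2 were higher and 2 lower at day 4, and 1 and 3 at day 21. Of the co-stimulatory genes with enough counts, 4 were higher and 1 lower in mature B-like cells at day 4. At day 21 6 were higher and 0 lower there, with a median of 0.70 against 0.23 over all genes. In Kupffer-like cells 1 was higher and 6 lower at day 4, and 5 and 2 at day 21. In conventional dendritic-like cells the counts were 2 and 2 at day 4, and 0 and 3 at day 21. Ifngr1, the ligand-binding chain of the interferon gamma receptor, was 226 CPM at day 21 and 501 CPM in the control in conventional dendritic-like cells (−1.14, −1.52 to −0.78). Jak2, a kinase of that receptor, was 29.2 CPM at day 4 and 71.8 CPM in the control in mature B-like cells (−1.28, −2.02 to −0.63). Cd80, which like Cd86 binds CD28, was 17.2 CPM at day 21 and 45.4 CPM in the control in Kupffer-like cells (−1.38, −2.04 to −0.80). Cd40, a receptor for T cell help, was 80.2 CPM at day 4 and 37.6 CPM in the control in mature B-like cells (1.09, 0.52 to 1.68). Icosl, a ligand of the T cell receptor ICOS, was 54.7 CPM at day 21 and 23.9 CPM in the control in the same class (1.18, 0.46 to 1.94). The shares of all genes past 2-fold in these comparisons are those given above. At day 4 and day 21, 54.35% and 66.6% of all genes were above 0 in mature B-like cells. The same shares were 51.4% and 56.7% in Kupffer-like and 48.2% and 63.9% in conventional dendritic-like cells. Of the 9 class I genes measured, 9 were higher at day 4 in Kupffer-like cells (median 0.15, against 0.01 over all genes, of which 51.4% were above 0), and 4 were higher and 5 lower at day 21 (median −0.19, against 0.09 over all genes, of which 56.7% were above 0). At day 4 8 of the 9 were higher in endothelial-like and 8 in stellate-like cells, where 55.35% and 51.0% of all genes were above 0. Of 8 with enough counts, 5 were higher at day 4 and 6 at day 21 in mature B-like cells. In conventional dendritic-like cells 4 and 2 of 8 were.

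The genes whose pattern was most like that of H2-Aa, H2-Ab1, H2-Eb1 and Cd74 were sought among 12111 genes over 35 class and library profiles, which share libraries and depth. The highest Pearson correlation of log2(CPM + 1) was that of Fgd2, at 0.92, then Ly86 and Irf5 at 0.87 each. Cd180, Rassf4 and Scimp followed at 0.83 each, Pkib and Pld4 at 0.82 each, and Il4i1 and Rab39 at 0.79 each. Of the other members H2-DMb1 had 0.94, Ciita 0.92, H2-DMa 0.90, H2-DMb2 0.86, Cd86 0.83 and Ctss 0.77, so Ctss was the member least like the class II chains.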

How the data were processed

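Single-cell RNA was measured in 3 libraries, 1 per group. The deposited values are raw UMI counts per gene and cell barcode from the authors; the file headers name Cell Ranger 3.1.0, and the build was mm10, per the submitters' processing notes. Barcodes under 200 genes or above 20% mitochondrial UMIs were dropped, as were called doublets (40, 99 and 732 in the control, day 4 and day 21 libraries). The called doublets were 0.845%, 1.80% and 6.86% of cells in these libraries. The shares expected from barcode numbers were 5.19%, 7.34% and 9.87%, so doublet removal was uneven between the libraries. Scanpy 1.11.5 and igraph 0.11.9 clustered cells on 2000 variable genes, 30 components and 15 neighbours at resolution 1, without class II genes, and 26 of 30 clusters were named from marker lists. Cluster 19, with Hoxa9 among its leading genes, was left unnamed by a rule made after the data had been seen. Counts were summed per class and library. Levels have exact Poisson, shares exact Clopper-Pearson and ratios exact conditional binomial intervals (SciPy 1.17.1), with 0.5 counts added to each side of a ratio. A ratio needed 50 cells in both libraries and 20 UMIs. The ratio code was tested on simulated data. All 10 members are named; pathway genes were named, in Kupffer-like, mature B-like and conventional dendritic-like cells, where they passed 2-fold with 50 or more UMIs over both libraries, with some of the highest or lowest of their list, and a result on 1 such gene is not reported here, and genes of similar pattern by correlation. The members and lists were chosen with earlier results of these data known. The number of mice per library and the day of the control are not given in the sources used here. Genes absent from the matrices, among them Ifi30, were not analysed here. Results were recomputed under 11 other settings, and 2 more were added after seeing the data.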

Additional observations from a re-analysis of the deposited data

How the results depend on the processing

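No paired analysis was possible because each group has 1 library. Of 676 single-gene ratios under other settings 634 kept their sign and 42, none of them past 2-fold as reported, took the other. Of the 676, 543 stayed within the reported interval and 133 moved out of it. With a mitochondrial limit of 10% the mature B-like median at day 21 was −0.84 with 2 genes at least 2-fold lower (71 day 21 cells, of which 57 were mature B-like in the reported clustering), 1 was lower at day 4, 1 was at least 2-fold higher in Kupffer-like cells at day 21, and 0, with Cd86 at −0.77, were lower in conventional dendritic-like cells at day 21. That last count was also 0 with class II genes allowed in clustering, and was 2, with a median of −0.71, at Leiden resolution 2. Thinning cells to 1000 UMIs gave Kupffer-like medians of 0.081 at day 4 and −0.26 at day 21, a mature B-like median of −0.34 at day 21 with 1 gene at least 2-fold higher at each time, and 1 lower in conventional dendritic-like cells at day 4. The mature B-like median at day 21 was −0.35 with doublets kept, −0.29 as a mean over cells and −0.44 under median-of-ratios scaling. Less the T-like level, 1 gene was at least 2-fold lower in mature B-like cells at day 4. Without cells holding B or dendritic markers the Kupffer-like median at day 4 was 0.28. The deeper Kupffer-like cluster alone, chosen after seeing the data, gave a median of 0.64 with 3 genes at least 2-fold higher at day 21. The cause of these moves was not tested. Without a cell filter no conventional dendritic-like value could be given. Depth limits ratios on few UMIs, such as those of Ciita and Cd86 in conventional dendritic-like cells.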
